A study of Mus musculus with 138 samples.

Results

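The 9 genes described here encode basic helix-loop-helix (bHLH) transcription factors and their inhibitors: Twist1 and Twist2, the E proteins Tcf12, Tcf3 and Tcf4, and the Id proteins Id1, Id2, Id3 and Id4. They were chosen by name, as 9 of 55487 counted genes, and all 9 passed the filter on low counts, which kept 19768 genes. bHLH proteins act as dimers that bind a short DNA motif, the E-box. E proteins are the widely expressed partners, Twist proteins are mesenchymal partners that pair with E proteins or with themselves, and Id proteins lack the basic region, so that a dimer with an Id protein cannot bind DNA. Id genes are classic targets of BMP signalling. In humans, loss of a copy of TWIST1 or TCF12 is a known cause of fusion of the coronal suture, the joint between the frontal and parietal bones of the skull roof.

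The captured material came from wild-type C57BL/6J mouse embryos that had no treatment and no mutant allele, collected at E16.5 or at E18.5 (embryonic age in days). From the coronal, frontal, lambdoid and sagittal sutures, the suture mesenchyme (SM) between the bones and the osteogenic front (OF) at each bone edge were cut out by laser-capture microdissection. The OFs were those of the frontal bone (FR; coronal and frontal sutures), the parietal bone (PA; coronal, lambdoid and sagittal sutures) and the interparietal bone (IP; lambdoid suture), which gave 8 SM and 12 OF groups of 5 embryos each, 100 libraries in all. SM and OF of the same replicate number came from the same embryo, and by the litter part of the embryo codes no litter gave both ages, while 3 litters gave embryos of 2 sutures each. In addition, 18 coronal samples had a second library, 16 libraries held a complete suture of E18.5 embryos, and 4 droplet single-cell libraries held cells of pooled coronal sutures.

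Total counts were 7305627 to 34518477 per captured library (median 14244957). Levels are given as CPM, the reads of a gene scaled to a common library total after TMM normalisation, and levels of different genes are compared as CPM per kilobase of exon. Differences are log2 fold changes with their standard error (SE) from edgeR's quasi-likelihood test over all genes tested, called at a Benjamini-Hochberg adjusted p under 0.05. Captured regions hold several cell types, and fewer cells of a type and less RNA per cell cannot be told apart in them. Of 9 osteoblast markers 8 were lower in SM than in OF in the comparison averaged over sutures and ages, with summed levels of 6224 to 36720 CPM (median 16570) in SM and 14340 to 61210 CPM (median 30800) in OF, so SM libraries still held transcripts of this list. The median log2 fold change of the 9 genes was -3.79, and 3 of them had a mean under 1 CPM in SM. The sum, weighted to the most abundant genes, thus differed less than most single markers and does not measure osteoblast content. By suture and age, this sum was lower in every SM library than in every OF library in the coronal and lambdoid sutures at both ages and in the sagittal suture at E18.5. It overlapped in the frontal suture at both ages and in the sagittal suture at E16.5, where it was 26430 to 29870 CPM in SM and 23250 to 32360 CPM in PA. Of 10 suture mesenchyme markers 8 were higher in SM and 1 was lower (summed level 1349 to 5524 CPM in SM against 948 to 4508 CPM in OF). From their bulk libraries the authors report Erg, Angptl2, Adamts8, Ets2 and Itgb5 of this list as higher in SM in every calvarial suture. The count is therefore not an independent check of the capture.

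Twist1 (mm10 chr12:33957671-33959829, plus strand) and Twist2 (chr1:91801461-91848028, plus strand) are close paralogs. Their sequence upstream of the annotated start is shown because the data concern how much transcript each region held. Each run holds the 250 bases before the start, from the RefSeq promoter windows of GRCm38.p6, on the strand of the gene. Capitals mark the CCAAT box and the TATAAA motif.
Twist1, chr12:33957421-33957670: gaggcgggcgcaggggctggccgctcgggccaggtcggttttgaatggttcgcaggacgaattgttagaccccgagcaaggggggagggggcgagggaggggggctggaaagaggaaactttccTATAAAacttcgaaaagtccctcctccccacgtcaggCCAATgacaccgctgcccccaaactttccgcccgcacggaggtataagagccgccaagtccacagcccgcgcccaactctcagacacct
Twist2, chr1:91801211-91801460: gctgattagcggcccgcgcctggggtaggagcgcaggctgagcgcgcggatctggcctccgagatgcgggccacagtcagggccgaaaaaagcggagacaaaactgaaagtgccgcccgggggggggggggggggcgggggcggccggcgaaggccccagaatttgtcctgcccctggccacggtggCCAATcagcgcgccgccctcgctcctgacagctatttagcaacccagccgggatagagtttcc
In Twist1 the TATAAA motif lay 126 to 121 bases and the CCAAT box 89 to 85 bases before the start, and in Twist2 the CCAAT box lay 63 to 59 bases before it. Over both strands, CCAAT stood in 33.8% and TATAAA in 12.4% of 32851 windows of the same length. The E-box letters CANNTG, present in 66.2% of windows, were in neither run, nor in the windows of Id3 and Id4, and stood once each in those of Id2 and Tcf3 and in the first listed window of Tcf12. The second listed window of Tcf12 also held 1 and the third 0. By the annotation used for counting, all 250 bases of the Id2 and Id3 windows lay inside the gene. So did 12 bases of the Tcf3 window and 52 of the first Tcf12 window. These matches describe letters only.

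Per kilobase of exon, Id3 was the most abundant member, with a median over the 20 groups of 30.1 CPM per kilobase. Twist1 (18.9), Tcf3 (14.3), Tcf12 (13.6), Id2 (12.4), Tcf4 (10.5) and Id1 (9.05 CPM per kilobase) followed. The length used joins all annotated exons of a gene (27382 bases for Tcf4, 15529 for Tcf12 and 1791 for Id3), and the order depends on it. In CPM alone the median group means of Tcf4 (288) and Tcf12 (211) were above that of Id3 (54.0). Twist2 (1.76) and Id4 (0.549 CPM per kilobase) were much lower, with median counts per library of 74.5 and 25 and with 2 and 4 libraries at 0. Group means ranged from 20.3 to 116 CPM for Twist1, 1.53 to 14 CPM for Twist2, 172 to 388 CPM for Tcf12, 34.7 to 74.6 CPM for Tcf3 and 220 to 655 CPM for Tcf4. For the Id genes they ranged from 2.25 to 33.8 CPM for Id1, 13.5 to 48.4 CPM for Id2, 17.1 to 132 CPM for Id3 and 0.80 to 5.2 CPM for Id4. The highest group was the SM of the sagittal suture at E16.5 for Twist1 and Tcf3, its PA front for Id2, Id3 and Twist2, and the coronal SM at E16.5 for Tcf12 and Tcf4. Most litters gave embryos of a single suture, and the order of sutures for a gene was not tested.

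**Figure D1:**
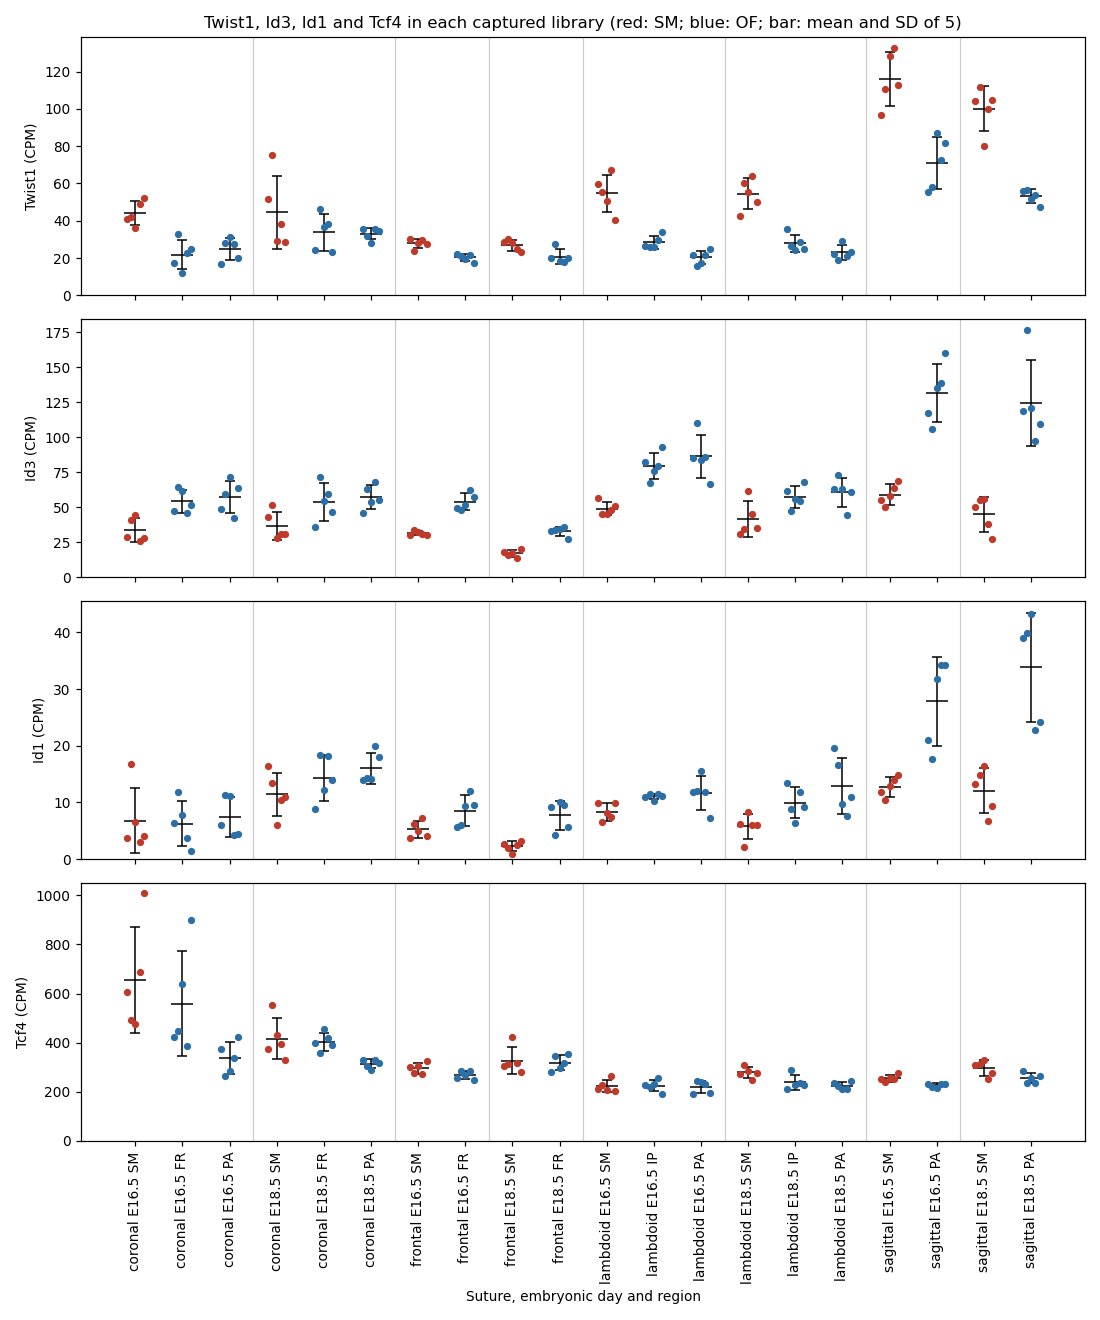
Levels of Twist1, Id3, Id1 and Tcf4 in CPM (vertical axes, from 0) in each of the 100 captured libraries, ordered by suture, embryonic day and region. Points are libraries (red SM, blue OF), bars are the mean and SD of 5. Twist1 points of SM lie mostly above those of the OF of the same suture and age, and Id3 points mostly below.

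The first comparison asked whether the members differed between mesenchyme and bone edge when all sutures and ages were averaged. Twist1 was higher in SM than in OF, while Id3 and Id1 were lower, and Tcf4 was slightly higher. Twist1 was 1.69-fold higher (log2 fold change 0.76, SE 0.06, adjusted p = 2.5e-20), and in 58 of 60 pairs of an SM and an OF library of the same embryo the SM library was the higher. Id3 was at 0.549 times (log2 fold change -0.86, SE 0.06, adjusted p = 1.1e-24) and Id1 at 0.550 times the OF level (log2 fold change -0.86, SE 0.12, adjusted p = 4.5e-10), with SM the lower in 57 and in 52 of 60 pairs. Tcf4 was 1.15-fold higher (log2 fold change 0.21, SE 0.05, adjusted p = 5.4e-05) and higher in 46 of 60 pairs. The members called were thus 4 of 9, 2 in each direction, where 55.4% of all tested genes were called (27.6% higher, 27.8% lower).

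The other 5 members did not pass the test in this average. Twist2 had a log2 fold change of -0.41 (SE 0.19, adjusted p = 0.064), which passed with the embryo as a replicate block (-0.46, adjusted p = 0.036), with the second coronal libraries (-0.48, adjusted p = 0.015) and without replicate 5 (-0.51, adjusted p = 0.018). The fit with second coronal libraries put in the 18 that exist and kept the first library of the other coronal samples. Each coronal group then held libraries of both kinds. Id4, the low-abundance Id gene known from neural and bone precursors, had 0.38 (SE 0.25, adjusted p = 0.20), and 0.66 (adjusted p = 0.029) without replicate 2. For the widely expressed members the 95% intervals were narrow: -0.13 to 0.02 for Tcf12, -0.06 to 0.20 for Tcf3 and -0.21 to 0.04 for Id2 on the log2 scale. The Tcf3 value, 0.07 (adjusted p = 0.36), passed with DESeq2 (0.14, adjusted p = 0.049) and with total counts in place of TMM scaling (0.18, adjusted p = 0.041), and total counts moved the median over all genes from 0.04 to 0.14.

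Several marker lists moved with the same contrast. Of 8 proliferation markers all 8 were lower in SM (summed level 336 to 4250 CPM, median 986, against 775 to 3726 CPM, median 1667, in OF). Pericyte markers were higher in SM for 7 of 8 (290 to 878 CPM against 79.8 to 1186 CPM), ectocranial mesenchyme markers for 5 of 5 (255 to 3097 CPM against 103 to 3327 CPM), dura mater markers for 5 of 9 (239 to 898 CPM against 74.8 to 450.0 CPM) and macrophage markers for 7 of 9 (41.2 to 397 CPM against 78.6 to 239 CPM). Endothelial markers were higher for 1 of 9 (51.0 to 682 CPM against 42.7 to 458 CPM), and neutrophil markers, all 7 with a mean under 1 CPM, were not tested. Chondrocyte markers were higher for 5 of 9 and lower for 2 (medians 340 CPM in SM and 323 CPM in OF). Periosteal markers were higher for 3 of 5 and lower for 2 (medians 12220 and 7794 CPM). Hypodermis markers were higher for 3 of 6 (medians 64.4 and 62.8 CPM) and mast cell markers for 2 of 5 (medians 134 and 40.0 CPM). The part of these cell types in the members' differences was not tested.

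The next comparison set SM against each OF of the same suture and age. Over the 9 members and 12 comparisons, 28 of 108 values passed the test (25.9%), 11 higher and 17 lower in SM, beside 19% over all tested genes (8.24% higher, 10.8% lower). Twist1 and Id3 made up 19 of the 28. The share of all genes called differed between the comparisons, from 3.46% (coronal SM against FR at E18.5) to 35.6% (coronal SM against PA at E16.5). Groups that did not overlap made up 7.85% (SM above) and 9.7% (SM below) of all gene and comparison pairs, and Twist1 had 9 of 12 with SM above, Id3 7 of 12 and Id1 4 of 12 with SM below. These shares ranged from 1.35% (SM above coronal FR at E18.5) to 18.6% (SM below sagittal PA at E16.5). In the sagittal suture SM lay below PA for 18.6% and 16.6% of genes at E16.5 and E18.5, and above for 14.6% and 14.7%.

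**Figure D2:**
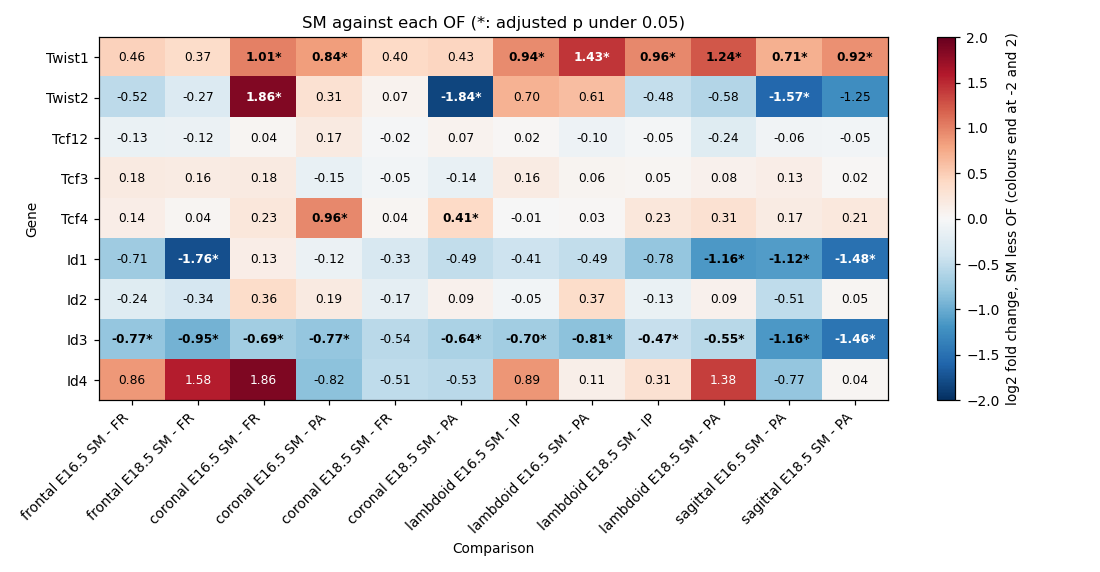
Fitted log2 fold change of SM less OF for the 9 members (rows) in the 12 comparisons of suture, age and front (columns). Red is higher in SM and blue lower, and asterisks mark adjusted p under 0.05. The Twist1 row is positive and the Id3 row negative in all 12 columns.

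Twist1, which keeps mesenchyme from premature bone formation and is mutated in Saethre-Chotzen syndrome, was fitted higher in SM in 12 of 12 comparisons, by 0.37 to 1.43 on the log2 scale. In the lambdoid suture at E16.5, SM held 59.6, 55.3, 50.8, 67.5 and 40.6 CPM in replicates 1 to 5, against 21.6, 15.9, 17.6, 21.6 and 25.1 CPM in PA and 26.3, 26.2, 26.2, 29.6 and 34.2 CPM in IP. Every SM library was above every OF library. This was the largest difference, of 1.43 against PA (SE 0.19, adjusted p = 1.5e-09), and against IP it was 0.94 (SE 0.19, adjusted p = 7.4e-05). In the sagittal suture at E16.5, SM held 96.7, 110, 128, 132 and 113 CPM and PA 55.3, 57.9, 86.9, 72.7 and 81.4 CPM (0.71, SE 0.18, adjusted p = 0.0020). In the coronal suture at E16.5, SM held 40.8, 42.0, 36.2, 49.2 and 52.4 CPM, FR 17.3, 32.8, 12.1, 22.5 and 24.9 CPM and PA 16.7, 27.9, 31.2, 27.5 and 20.3 CPM (1.01 and 0.84, SE 0.18 each, adjusted p = 1.0e-05 and 0.00017). In both, the SM and OF libraries did not overlap. The overlap of the osteoblast marker sums in the sagittal suture at E16.5 holds for the other members' values there too, and its part in them was not tested.

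Twist1 did not pass in 4 comparisons, those of the frontal suture at both ages and of the coronal suture at E18.5. In the frontal suture at E16.5, SM held 30.1, 23.9, 28.1, 29.9 and 27.8 CPM and FR 22.0, 21.0, 19.5, 21.5 and 17.6 CPM, so that the groups did not overlap although the test was not passed (0.46, SE 0.18, adjusted p = 0.13). It was passed with DESeq2 (0.52, adjusted p = 0.044), with the frontal suture fitted by itself (0.47, adjusted p = 0.018) and without replicate 2 (0.56, adjusted p = 0.0497). In the coronal suture at E18.5, SM held 51.5, 75.3, 29.0, 38.4 and 28.4 CPM, FR 24.2, 46.5, 36.8, 38.3 and 23.4 CPM and PA 35.5, 32, 28.1, 35.4 and 34.6 CPM. The 2 highest libraries were SM of replicates 1 and 2, and the other 3 SM libraries lay among those of the fronts (0.40 against FR and 0.43 against PA, adjusted p = 0.29 and 0.095). The comparison with PA passed with DESeq2 (0.49, adjusted p = 0.031), median-ratio size factors (0.49, adjusted p = 0.039), total counts (0.68, adjusted p = 0.0052) and without replicate 5 (0.61, adjusted p = 0.025). The 8 comparisons that passed did so under every alternative processing run.

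Twist2, the paralog active in dermal and bone precursors, went in no single direction. In the sagittal suture it was lower in SM, with 6.42, 7.29, 3.10, 3.59 and 3.17 CPM at E16.5 against 11.6, 11.8, 16, 14.9 and 15.7 CPM in PA (-1.57, SE 0.58, adjusted p = 0.048), and no SM library reached a PA library. At E18.5 the groups did not overlap either (3.01 to 5.32 CPM against 6.14 to 15 CPM), but the test was not passed (-1.25, adjusted p = 0.11). With the sagittal suture fitted by itself both ages passed (adjusted p = 1.2e-05 at E16.5, and -1.23, adjusted p = 0.00021, at E18.5). In the coronal suture at E18.5, SM held 0.609, 0.446, 0.718, 2.51 and 3.78 CPM and PA 6.99, 4.8, 6.07, 3.76 and 7.19 CPM (-1.84, SE 0.60, adjusted p = 0.021), with an overlap between SM replicate 5 and PA replicate 4 only. The coronal SM at E16.5 was called higher than FR (1.86, SE 0.59, adjusted p = 0.012), with 6.36, 4.49, 2.45, 0.80 and 31.8 CPM against 0, 2.30, 0, 0.753 and 9.6 CPM. Replicate 5 was far above the rest in both regions, and without replicate 1 the adjusted p was 0.057. The E16.5 sagittal call was lost with median-ratio size factors (adjusted p = 0.063), with no filter (adjusted p = 0.059) and without any 1 of the 5 replicates (adjusted p 0.068 to 0.17), and the E18.5 coronal call without replicate 1, 2 or 3 (0.082 to 0.14). With the coronal suture fitted by itself neither coronal call was kept (1.84 and -1.80, adjusted p = 0.27 and 0.42). With the lambdoid suture fitted by itself Twist2 passed as higher in SM at E16.5 against both IP (0.75, adjusted p = 0.035) and PA (0.68, adjusted p = 0.039), against 0.70 and 0.61 (adjusted p = 0.56 and 0.50) with all sutures. Twist2 shares 1477 exonic bases with the antisense gene Gm29100, and counting without strand cannot tell their reads apart.

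Id3 (chr4:136143497-136145755, plus strand), an Id gene that BMP signals induce in many cell types, was fitted lower in SM in 12 of 12 comparisons, by 0.47 to 1.46 on the log2 scale, and 11 passed. In the sagittal suture at E18.5, SM held 49.9, 55.4, 55.6, 37.7 and 27 CPM and PA 118, 176, 121, 97.2 and 109 CPM. The lowest PA library was above the highest SM library, and the difference was the largest of the 12 (-1.46, SE 0.17, adjusted p = 3.4e-11). At E16.5 the same suture gave 54.8, 50.2, 58.1, 63.4 and 68.9 CPM in SM and 117, 106, 135, 139 and 160 CPM in PA (-1.16, SE 0.17, adjusted p = 7.5e-08). In the frontal suture at E18.5 SM held 17.7, 16.1, 17.2, 14 and 20.5 CPM and FR 32.7, 33.5, 34.6, 36.2 and 27.5 CPM (-0.95, SE 0.18, adjusted p = 3.5e-05). These 3 pairs of groups did not overlap, nor did those of the frontal suture at E16.5, both lambdoid comparisons at E16.5 and the coronal SM and FR at E16.5.

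The comparison that Id3 did not pass was coronal SM against FR at E18.5 (-0.54, SE 0.17, adjusted p = 0.056), which passed with the replicate block (-0.53, adjusted p = 0.033), DESeq2 (-0.52, adjusted p = 0.041), limma-voom (-0.55, adjusted p = 0.029) and without replicate 1 (-0.70, adjusted p = 0.032). There SM held 42.9, 51.2, 27.8, 30.7 and 31.2 CPM and FR 35.8, 71.7, 54.2, 59.6 and 46.5 CPM, with SM the lower in 4 of 5 embryos. At E18.5 the lambdoid calls were lost under many alternatives. Against IP (-0.47, SE 0.17, adjusted p = 0.045) the call was kept in 3 of 13 and was lost with DESeq2 (-0.36, adjusted p = 0.12), limma-voom (-0.49, adjusted p = 0.11), median-ratio size factors (-0.36, adjusted p = 0.12), total counts (-0.39, adjusted p = 0.15), no filter (-0.46, adjusted p = 0.10), the second coronal libraries (-0.45, adjusted p = 0.40) and without replicate 1, 2, 4 or 5 (-0.49 to -0.29). Against PA (-0.55, SE 0.17, adjusted p = 0.012) it was kept in 6 of 13 and was lost with DESeq2 (-0.42, adjusted p = 0.050), median-ratio size factors (-0.42, adjusted p = 0.055), total counts (-0.39, adjusted p = 0.13), the second coronal libraries (-0.51, adjusted p = 0.29) and without replicate 1, 2 or 5 (-0.45 to -0.37). The coronal call against PA at E18.5 (-0.64, SE 0.17, adjusted p = 0.0039) was lost without replicate 4 (-0.48, adjusted p = 0.083), with total counts (-0.36, adjusted p = 0.17), with the second coronal libraries (-0.49, adjusted p = 0.33) and with the coronal suture fitted by itself (-0.62, adjusted p = 0.091). Of the lambdoid SM libraries of that age, replicate 3 was the highest, at 61.8 CPM beside 30.6 to 45.4 CPM. With the 18 second coronal libraries in place of the first ones of the same samples, only the sagittal Id3 calls were kept, and the others had values of -0.96 to -0.45 and adjusted p of 0.056 to 0.40. Each coronal group then mixed both kinds of library, between which Id3 differed by a median log2 ratio of 1.56. The part of this mixing in the lost calls was not tested. The frontal and lambdoid libraries were the same in both fits, and the fold changes there stayed close, for example -0.81 and -0.75 in the lambdoid suture at E16.5 against PA.

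Id1 (chr2:152736251-152737410, plus strand), another BMP-responsive Id gene, followed Id3 at a lower level. It was fitted lower in SM in 11 of 12 comparisons and passed in 4. In the frontal suture at E18.5, SM held 2.71, 1.96, 0.875, 2.43 and 3.27 CPM and FR 9.11, 4.29, 10.1, 9.50 and 5.63 CPM (-1.76, SE 0.37, adjusted p = 0.00027), a call lost in limma-voom only (-1.77, adjusted p = 0.067). In the sagittal suture SM held 11.9, 10.4, 12.8, 14 and 14.9 CPM and PA 21.1, 17.7, 31.8, 34.3 and 34.2 CPM at E16.5 (-1.12, SE 0.34, adjusted p = 0.012), and at E18.5 13.2, 14.8, 16.46, 6.70 and 9.34 CPM against 39.0, 39.8, 43.3, 22.8 and 24.2 CPM (-1.48, SE 0.34, adjusted p = 0.00042). In these 3 comparisons every SM library was below every OF library. The lambdoid call against PA at E18.5 (-1.16, SE 0.35, adjusted p = 0.0095) was lost in 5 of 13 alternatives: limma-voom (-1.16, adjusted p = 0.081), total counts (-0.98, adjusted p = 0.054), the second coronal libraries (-1.11, adjusted p = 0.13) and without replicate 1 or 2 (-0.94 and -0.80, adjusted p = 0.11 and 0.10). The sagittal call at E16.5 was lost with the second coronal libraries (-1.13, adjusted p = 0.13) and without replicate 3 or 4 (-1.03 each, adjusted p = 0.067 and 0.073). Against the lambdoid IP at E18.5 Id1 had -0.78 (adjusted p = 0.12) and passed with that suture fitted by itself (-0.74, adjusted p = 0.028).

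In the coronal suture Id1 showed no such difference at E16.5. SM held 3.64, 16.7, 6.52, 3.04 and 3.99 CPM, FR 6.45, 11.8, 7.74, 3.76 and 1.35 CPM and PA 6.03, 11.3, 11.1, 4.19 and 4.39 CPM, so that all 3 groups overlapped (0.13 against FR and -0.12 against PA, adjusted p = 0.81 each). At E18.5 coronal SM held 6.06 to 16.4 CPM, FR 8.91 to 18.4 CPM and PA 13.9 to 19.9 CPM. There SM was the lower in 4 of 5 embryos against each front, and neither comparison passed. Averaged over both ages, the difference of SM against OF was higher in the coronal suture than in the mean of the other 3 sutures by 0.88 (SE 0.25, adjusted p = 0.0054), in a test of that difference in which 2 of 9 members and 21.3% of all genes passed (12.8% positive, 8.45% negative). Proliferation markers moved with this: their summed level in coronal SM at E16.5 was 1752 to 4250 CPM, beside 1531 to 3726 CPM in FR and 1704 to 2801 CPM in PA, whereas in the sagittal suture at E16.5 it was 1121 to 1277 CPM in SM and 2023 to 2482 CPM in PA. Their part in the Id1 values was not tested. With the second coronal libraries in place of the first the Id1 difference was 0.59 (adjusted p = 0.30).

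Tcf4, the E protein mutated in Pitt-Hopkins syndrome (chr18:69343356-69689079, plus strand), was fitted higher in SM in 11 of 12 comparisons and passed in 2, those against the coronal PA front. At E16.5 coronal SM held 607, 491, 478, 690 and 1010 CPM, PA 373, 266, 286, 339 and 422 CPM and FR 422, 446, 638, 387 and 898 CPM. All SM libraries were above all PA libraries (0.96, SE 0.14, adjusted p = 2.5e-08), while SM and FR overlapped (0.23, SE 0.14, adjusted p = 0.20). At E18.5 SM held 376, 552, 429, 397 and 328 CPM and PA 331, 305, 288, 330 and 317 CPM (0.41, SE 0.14, adjusted p = 0.027), a call lost without replicate 2 or 3 (0.32 and 0.39, adjusted p = 0.16 and 0.077), with the second coronal libraries (0.51, adjusted p = 0.054) and with the coronal suture fitted by itself (0.43, adjusted p = 0.28). Markers of vessel cells moved with these values. Summed endothelial markers were at 271 to 371 CPM in coronal SM and 71.6 to 110 CPM in PA at E18.5, with no overlap, and at 211 to 574 CPM and 118 to 445 CPM at E16.5, with overlap. Summed pericyte markers were at 380 to 878 CPM in SM and 79.8 to 229 CPM in PA at E16.5, and at 503 to 797 CPM and 360.0 to 503 CPM at E18.5. Their part in the Tcf4 values was not tested. In the lambdoid suture at E18.5, where SM (249 to 308 CPM) lay above PA (211 to 244 CPM) in all libraries, the test was not passed (0.31, adjusted p = 0.096) but passed in 6 of 13 alternatives, which were total counts (0.46, adjusted p = 0.0019), the lambdoid suture by itself (0.35, adjusted p = 0.0058), DESeq2 (0.44, adjusted p = 0.010), median-ratio size factors (0.44, adjusted p = 0.013), leaving out replicate 5 (0.38, adjusted p = 0.020) and the replicate block (0.30, adjusted p = 0.0496). With each suture fitted by itself Tcf4 also passed at E18.5 against the lambdoid IP (0.26, adjusted p = 0.044) and the sagittal PA (0.23, adjusted p = 0.018), and with total counts at E16.5 against the coronal FR (0.40, adjusted p = 0.0065) and the lambdoid PA (0.32, adjusted p = 0.042). The excess of the coronal difference over the other sutures was 0.27 (SE 0.10, adjusted p = 0.039) and was kept in 5 of 12 alternatives. It was lost with DESeq2 (0.24, adjusted p = 0.072), median-ratio size factors (0.24, adjusted p = 0.079), no filter (0.27, adjusted p = 0.059), the second coronal libraries (0.26, adjusted p = 0.21) and without replicate 1, 2 or 4 (0.18 to 0.29, adjusted p 0.082 to 0.26).

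Tcf12 (chr9:71842688-72111871, minus strand), the E protein whose loss is a known cause of coronal fusion in people, passed in none of the 12 comparisons, with values from -0.24 to 0.17. In 1 of the 12 its unadjusted p was under 0.05, and DESeq2 and limma-voom called 0, while with total counts it passed against the coronal PA at both ages (0.37 and 0.35, adjusted p = 0.0033 and 0.011), and at E16.5 also without replicate 5 (0.31, adjusted p = 0.027, against 0.17, adjusted p = 0.25). Tcf3 (chr10:80409514-80433647, minus strand), which encodes E12 and E47, passed in none (0 of 12 also at an unadjusted p under 0.05 and by DESeq2 and limma-voom), with values from -0.15 to 0.18, and its SM and OF groups overlapped in all 12. Id2 (chr12:25093799-25097140, minus strand) passed in none (1 at an unadjusted p under 0.05, 0 by DESeq2, 1 by limma-voom), with values from -0.51 to 0.37 and SM the higher in 24 of 60 pairs. Its largest difference was in the sagittal suture at E16.5, with 32.9, 33.2, 29.8, 34.4 and 39.0 CPM in SM and 45.8, 34.0, 52.2, 49.2 and 60.6 CPM in PA (-0.51, SE 0.20, adjusted p = 0.056), and it passed with that suture fitted by itself (-0.51, adjusted p = 0.018), with limma-voom (-0.50, adjusted p = 0.030) and without replicate 2 (-0.58, adjusted p = 0.044). Without replicate 2 it also passed as higher in coronal SM than FR at E16.5 (0.56, adjusted p = 0.032, against 0.36, adjusted p = 0.16). With total counts Id2 passed as higher in lambdoid SM than PA at E16.5 (0.64, adjusted p = 0.024). Id4 (chr13:48261228-48266026, plus strand), which shares 82 and 171 exonic bases with 2 antisense genes, ranged from -0.82 to 1.86 and passed in none (1 at an unadjusted p under 0.05, 1 by DESeq2, 0 by limma-voom). The lowest value, of coronal SM against PA at E16.5, was -2.36 (adjusted p = 0.030) without replicate 3 and 1.24 (adjusted p = 0.22) without replicate 2. The replicate block called it higher in coronal SM than FR at E16.5 (2.02, adjusted p = 0.026, against 1.86, adjusted p = 0.061, without it), as did DESeq2 (1.81, adjusted p = 0.039) and total counts (2.09, adjusted p = 0.040). With each suture fitted by itself Id4 passed as higher in SM at E18.5 in the frontal suture (1.56, adjusted p = 0.026) and against the lambdoid PA (1.41, adjusted p = 0.036).

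Between the fronts of 1 suture, 3 of 36 values passed (8.33%), beside 5.09% over all genes (2.89% positive, 2.21% negative). Tcf4 was higher in FR than in PA of the coronal suture at E16.5 (0.73, SE 0.14, adjusted p = 0.00015), with the lowest FR library (387 CPM) below the highest PA library (422 CPM), and with the second coronal libraries in place of the first it had 0.58 (adjusted p = 0.075), and with the coronal suture fitted by itself 0.74 (adjusted p = 0.14). At E18.5 it had 0.36 (adjusted p = 0.11), and it passed with the second coronal libraries (0.64, adjusted p = 0.034), total counts (0.60, adjusted p = 0.00021), DESeq2 (0.43, adjusted p = 0.037) and without replicate 5 (0.42, adjusted p = 0.030). In this fit, where each coronal group mixed both kinds of library, Tcf4 was thus called at E18.5 and not at E16.5. In the second libraries alone, 3 per group, FR lay above PA with no overlap at both ages. FR held 268.5 to 314 CPM and PA 204 to 243 CPM at E16.5, and 366 to 523 CPM and 193 to 278 CPM at E18.5. Twist2 was lower in FR than in PA at E18.5, with 2.32, 1.82, 1.89, 0.609 and 1.03 CPM against the PA values above, and with no overlap (-1.91, SE 0.60, adjusted p = 0.039), but the call was lost without any 1 of the 5 replicates (adjusted p 0.076 to 0.16). It was also lost with total counts (-1.68, adjusted p = 0.059) and with the coronal suture fitted by itself (-1.86, adjusted p = 0.81). At E16.5 it had -1.54 (adjusted p = 0.063), and it passed with the replicate block (-2.72, adjusted p = 0.0048), DESeq2 (-1.52, adjusted p = 0.036), limma-voom (-3.78, adjusted p = 0.00048), total counts (-1.77, adjusted p = 0.028) and without replicate 5 (-3.21, adjusted p = 0.00028), whose FR library stood apart from the other 4. The Id4 call at E16.5 (-2.68, SE 0.80, adjusted p = 0.016) rested on PA replicate 2, at 20.1 CPM beside 0 to 4.42 CPM in the other 4, and was -0.53 (adjusted p = 0.72) without replicate 2. It was also lost with limma-voom (-1.89, adjusted p = 0.22), the coronal suture by itself (-2.65, adjusted p = 0.38) and the second coronal libraries (-1.20, adjusted p = 0.26). Tcf12 passed at E18.5 with total counts (0.32, adjusted p = 0.046, against 0.08, adjusted p = 0.79). In the lambdoid suture none of the 18 values passed (0 also by DESeq2 and limma-voom), and 2 had an unadjusted p under 0.05. Over all genes the share called there was 0.486% at E16.5 and 0.0101% at E18.5, so that hardly any gene passed. Between the coronal fronts it was 14.4% and 5.44%.

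The comparison of ages asked which members changed from E16.5 to E18.5 within a region. Over 10 regions, 10 of 90 values passed (11.1%), 3 higher and 7 lower at E18.5, beside 8.57% over all genes (4.43% higher, 4.14% lower), and all 10 were in the coronal and frontal sutures. With each suture fitted by itself, 4 values passed in the lambdoid and sagittal sutures: Twist2 (-1.28, adjusted p = 0.0015) and Tcf4 (0.32, adjusted p = 0.036) in lambdoid SM, and Id2 (-0.54, adjusted p = 0.036) and Twist1 (-0.42, adjusted p = 0.016) in sagittal PA. Id1 in frontal SM also passed there (-1.20, adjusted p = 0.028), with DESeq2 (-1.20, adjusted p = 0.034), with total counts (-1.38, adjusted p = 0.033) and without replicate 5 (-1.45, adjusted p = 0.0397), against -1.19 (adjusted p = 0.064). Over all genes the share called was 20.6% to 27.1% in the coronal regions, 2.33% and 4.34% in the frontal ones and 0.288% to 2.96% in the lambdoid and sagittal ones. Litter dates differed between the ages in every suture, so that age and litter cannot be told apart.

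**Figure D3:**
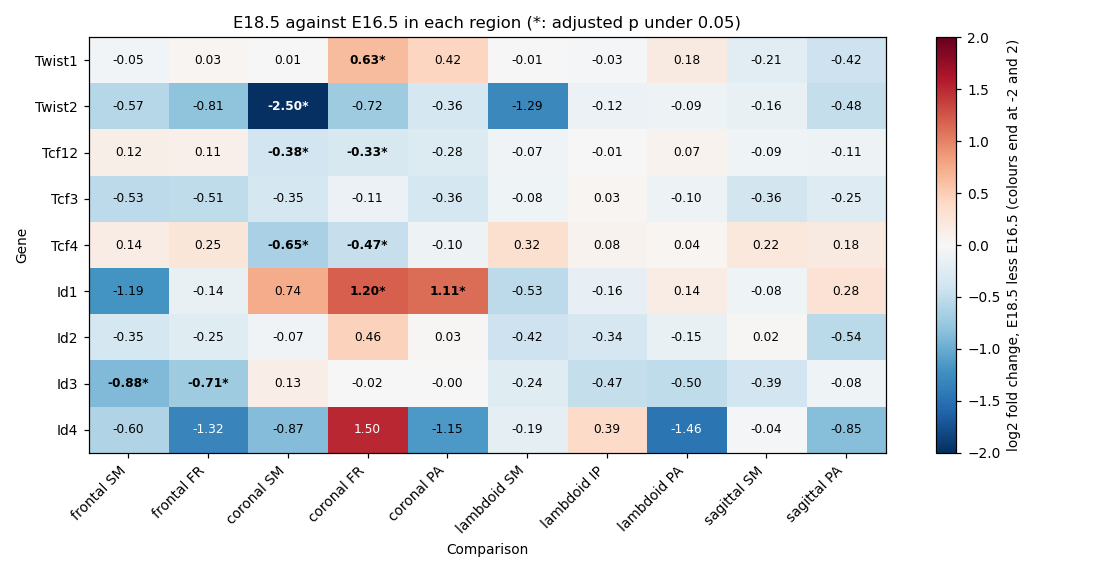
Fitted log2 fold change of E18.5 less E16.5 for the 9 members (rows) in the 10 regions (columns). Red is higher and blue lower at E18.5, and asterisks mark adjusted p under 0.05. The lambdoid and sagittal columns hold no asterisk.

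In the frontal suture Id3 was lower at E18.5 in both regions. Its SM libraries held 30.5, 33.7, 32.2, 30.8 and 30.4 CPM at E16.5 and, as given above, 14 to 20.5 CPM at E18.5 (-0.88, SE 0.18, adjusted p = 0.00079). Its FR libraries held 49.3, 48.1, 51.7, 62.6 and 57.2 CPM and then 27.5 to 36.2 CPM (-0.71, SE 0.17, adjusted p = 0.0072). The ages did not overlap in either region. Without replicate 5 the FR value was -0.62 (adjusted p = 0.11). Marker sums of cell types moved with age as well. In frontal SM, proliferation markers summed to 859.5 to 981 CPM at E16.5 and 477 to 638 CPM at E18.5, while ectocranial mesenchyme markers went from 1122 to 1895 CPM to 2352 to 3097 CPM, mast cell markers from 57.8 to 143 CPM to 295 to 452 CPM and osteoblast markers from 15880 to 18410 CPM to 22630 to 33950 CPM, none of which overlapped between ages. In frontal FR these 4 sums overlapped. Their part in the Id3 values was not tested. Sums of the other marker lists between the frontal ages are not given here, so these 4 need not cover every marker shift in FR or SM.

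In the coronal suture the E proteins Tcf4 and Tcf12 and the partner Twist2 were lower at E18.5 in SM. Tcf4 fell from 478 to 1010 CPM to 328 to 552 CPM (-0.65, SE 0.14, adjusted p = 0.00016), and in FR from 387 to 898 CPM to 356 to 454 CPM (-0.47, SE 0.14, adjusted p = 0.0080). Tcf12 held 469, 319, 346, 434 and 374 CPM in SM at E16.5 and 306, 370, 247, 308 and 260 CPM at E18.5, which overlapped (-0.38, SE 0.12, adjusted p = 0.0086), and in FR it had -0.33 (SE 0.12, adjusted p = 0.028). Twist2 in SM had -2.50 (SE 0.61, adjusted p = 0.0010), with the overlapping library values given above. Id1 was higher at E18.5 in FR (8.91, 18.4, 12.2, 18.1 and 13.9 CPM, 1.2, SE 0.34, adjusted p = 0.0065) and PA (13.9, 14.2, 14.1, 19.9 and 17.9 CPM, 1.11, SE 0.34, adjusted p = 0.014), whereas in SM it had 0.74 (adjusted p = 0.094), a value that passed without replicate 2, the highest SM library at E16.5 (1.35, adjusted p = 0.0019), with limma-voom (0.88, adjusted p = 0.032) and with total counts (0.97, adjusted p = 0.041). Twist1 was higher in FR (0.63, SE 0.18, adjusted p = 0.0077).

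Pericyte marker sums were higher at E18.5 beside these values in FR (162 to 370 CPM at E16.5 and 591 to 1186 CPM at E18.5) and PA (79.8 to 229 CPM and 360.0 to 503 CPM), and periosteal markers in SM (6736 to 8558 CPM and 14450 to 17380 CPM), FR (6487 to 8773 CPM and 10800 to 16610 CPM) and PA (7031 to 8262 CPM and 13350 to 18390 CPM). Suture mesenchyme markers in SM went from 4395 to 5524 CPM to 3729 to 4310 CPM. Endothelial marker sums in PA, given above with the Tcf4 values, were lower at E18.5. The ages did not overlap in any of these sums, and their part in the members' values was not tested. The other marker lists are not given here by age, so these need not be all that moved.

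The coronal values depended on scaling and on single embryos. With total counts in place of TMM scaling, the median of all genes in coronal FR moved from 0.02 to 0.47, and Tcf4 and Tcf12 there went from -0.47 and -0.33 to 0.083 and 0.17, while in SM Tcf4 went to -0.24 and Tcf12 to -0.02, none of them passing. With the 18 second coronal libraries put in, so that each coronal group held both kinds of library, of these 10 calls only those of Twist2 and Tcf4 in coronal SM were kept. Id1 then had 0.33 in FR and 0.37 in PA, Twist1 0.29 in FR and Tcf4 -0.10 in FR, each smaller than above by over 1.5 times, while Tcf12 had -0.28 in SM and -0.32 in FR. The frontal Id3 values, from the same libraries in both fits, were -0.90 and -0.70 (adjusted p = 0.20 and 0.28). The second libraries alone, 3 per group, held Tcf4 at 314.5 to 389 CPM in coronal SM at E16.5 and 268 to 367 CPM at E18.5, which overlapped. In FR they held 268.5 to 314 CPM and 366 to 523 CPM, higher at E18.5 with no overlap, opposite to the first libraries. Twist2 in SM was lower at E18.5 with no overlap (3.88 to 5.51 CPM and 0.31 to 3.57 CPM). Id3 was lower at E18.5 with no overlap in coronal SM, FR and PA alike (in SM 136.9 to 170.7 CPM and 80.7 to 134.8 CPM). In the first libraries the ages overlapped in Id3 in each of these regions (in SM 25.81 to 44.24 CPM and 27.75 to 51.21 CPM). The values of the second libraries alone were not tested. With the coronal suture fitted by itself, only that of Tcf4 in SM was kept of the 8 coronal calls, Twist2 in SM had -2.47 (adjusted p = 0.15), and the other 6 had adjusted p of 0.14 to 0.25. Other coronal values passed under some alternatives. Tcf12 in PA passed with DESeq2 (-0.33, adjusted p = 0.021), median-ratio size factors (-0.33, adjusted p = 0.029) and without replicate 2 or 3 (-0.34 and -0.35, adjusted p = 0.047 each). Id2 in FR passed with limma-voom (0.49, adjusted p = 0.028) and total counts (0.96, adjusted p = 0.00036). Id4 in FR passed with limma-voom (2.99, adjusted p = 0.0086), the second coronal libraries (2.115, adjusted p = 0.011), total counts (2.04, adjusted p = 0.043) and without replicate 3 (3.51, adjusted p = 0.0062). Twist1 in PA passed with total counts (0.71, adjusted p = 0.0038) and without replicate 3 (0.53, adjusted p = 0.045). Leaving out replicate 1 ended the Tcf12 call in SM (-0.31, adjusted p = 0.083), replicate 2 or 5 that in FR (-0.31 and -0.16, adjusted p = 0.065 and 0.34), and replicate 5 the Tcf4 call in FR (-0.24, adjusted p = 0.17). With no filter the Tcf12 call in FR was also lost (-0.27, adjusted p = 0.14). The Id1 call was lost in FR without replicate 4 or 5 (0.92 each, adjusted p = 0.075 and 0.074) and in PA without replicate 1, 4 or 5 (0.83 to 1.08, adjusted p 0.055 to 0.14), and the Twist1 call in FR without replicate 3 or 4 (0.42 and 0.56, adjusted p = 0.11 and 0.052).

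Whether the SM to OF difference itself changed with age was tested in each suture. By edgeR's quasi-likelihood test 0 of 36 values passed, beside 1.95% over all genes, and 5 had an unadjusted p under 0.05. The share over all genes was 7.62% in the coronal, 0.126% in the lambdoid, 0.0304% in the sagittal and 0.00506% in the frontal suture. Outside the coronal suture hardly any gene passed. DESeq2 called 1 and limma-voom 2, all negative and in the coronal suture: Twist2 in both (-1.94, adjusted p = 0.043, and -2.68, adjusted p = 0.022, against -1.97, adjusted p = 0.076) and Twist1 in limma-voom (-0.62, adjusted p = 0.047, against -0.51, adjusted p = 0.15). Without replicate 2, edgeR's test gave Twist1 -0.83 (adjusted p = 0.011).

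Some members stood out by library set. In 18 coronal samples sequenced a second time from another library, Id1 was higher in the second library than in the first in 17 (median log2 ratio 2.05), Id3 in 18 (1.56) and Twist1 in 18 (1.16), and only 1.45%, 3.47% and 7% of tested genes had medians as high. Id2 was also higher in 18 of 18 (0.57), whereas Tcf12 was lower in 18 of 18 (-0.39) and Tcf4 in 17 (-0.53). The median over all tested genes was 0. Over genes of at most 2000 exonic bases it was also 0, and over genes of at least 10000 exonic bases it was -0.37. How the second libraries differ is not given in the sources used here. Within the second libraries, which are 3 per group, SM was above OF for Twist1 in 10 of 11 pairs of the same embryo and for Tcf4 in 9 of 11, and below OF for Id3 and Id1 in 10 of 11 each.

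The complete sutures also differed by library set in Id1 and Id3, whereas the sets overlapped in Tcf4. They carry 4 code prefixes, each with a complete coronal, frontal, lambdoid and sagittal suture, and are labelled as controls for normalization. Id1 was at 37.0 to 47.2 CPM and 32 to 50.1 CPM under the prefixes C and S, and at 12.1 to 16.4 CPM and 10.9 to 13.1 CPM under IF and L. Id3 was at 105 to 127 CPM and 88.7 to 119 CPM under C and S against 46.0 to 63.7 CPM and 51.3 to 72.9 CPM under IF and L, while Tcf12 stayed within 171 to 210.2 CPM in all 16. For Twist1, the sagittal suture was the highest of the 4 under every prefix, with 85.2 CPM (C), 34.9 CPM (IF), 37.7 CPM (L) and 84.7 CPM (S), beside 14.9 to 54.5 CPM in the other sutures. It was also the highest under every prefix for Id2 and Tcf3, but for Twist2 under IF only and for Id1 and Id3 under none. For Id3 it held 121 CPM (C), 56.8 CPM (IF), 56.2 CPM (L) and 100 CPM (S). The highest were the coronal suture under C, IF and S (127, 63.7 and 119 CPM) and the frontal under L (72.9 CPM). The labels give all 16 the same replicate number, so that no spread between animals could be computed.

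**Figure D4:**
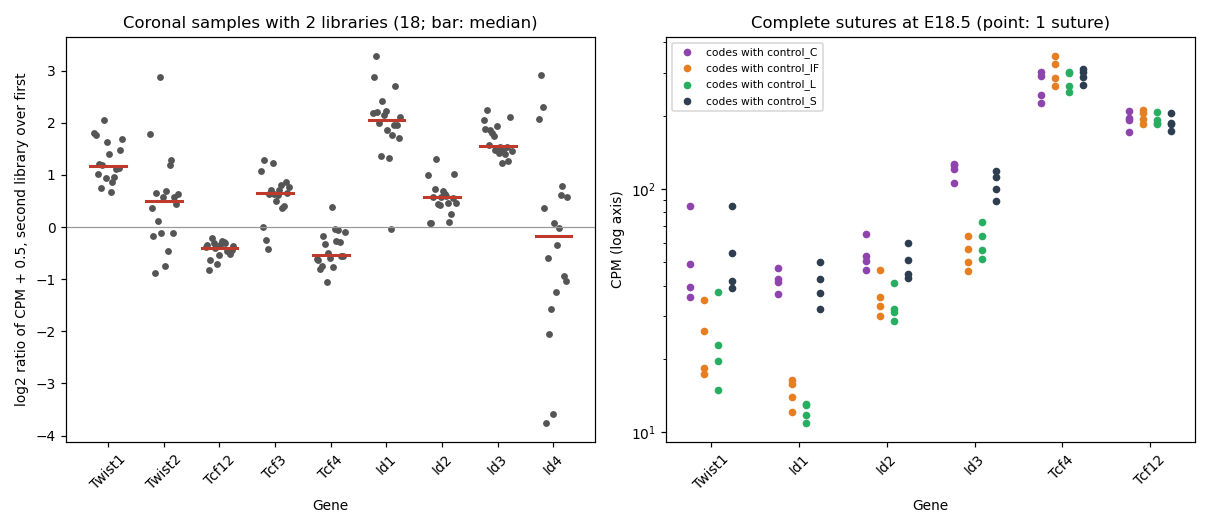
Left, log2 ratio of CPM + 0.5 in the second over the first library for the 9 members in 18 coronal samples, with the median as a red bar. Right, CPM (log axis) of 6 members in the 16 complete sutures, coloured by code prefix. Id1, Id3 and Twist1 lie above 0 on the left in nearly all samples, and on the right the prefixes C and S lie above IF and L for Id1 and Id3.

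In the coronal single cells, each age had 2 libraries of cells from pooled embryos of both sexes. Cells kept were 466 and 337 at E16.5 (median 2501 and 2121 unique molecular identifiers, UMIs, per cell) and 2412 and 1577 at E18.5 (18476 and 7131). The libraries of an age shared 1 (E16.5) and 5 (E18.5) barcodes. Clusters were built without the members, named by fixed markers, and the values are UMIs of a gene over all UMIs of a cluster in a library, in CPM, for library 1 and library 2. Chemistry differed between ages, so that ages are not compared. The clusters were not tested against each other, and 95% Poisson intervals cover counting error only.

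Twist1 was a gene of the mesenchymal and bone-lineage clusters. At E16.5 it was at 476 (392 to 573) and 488 CPM (298 to 753) in ectocranial mesenchyme-like cells, 328 and 408 CPM in osteoblast-like cells and 346 and 400 CPM in proliferating-like cells. Macrophage-like and osteoclast-like cells were at 0 to 11.1 CPM, a level that free RNA could give. At E18.5 it was at 200 and 136 CPM in ectocranial mesenchyme-like cells, at 118 and 31.9 CPM in the osteoblast-like cluster led by Bglap and Ibsp, and at 29.4 and 25.3 CPM in that led by Dmp1 and Phex. The first and last of these are apart by more than their intervals in each library (191 to 209 against 14.1 to 54 CPM in library 1, 114 to 159 against 9.29 to 55.1 CPM in library 2).

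Twist2 was concentrated elsewhere. At E18.5 it was highest in an unnamed cluster led by Atp1b1, Itih5 and Fxyd5, at 107 and 59.8 CPM, and was at 8.44 and 4.91 CPM in the first osteoblast-like cluster, near the 4.12 and 5.88 CPM of macrophage-like cells. In the unnamed cluster that has Hhip among its leading genes (Ptx4, Tppp3, Dpt) it was at 6.22 and 4.29 CPM. Twist1 was at 162 and 140 CPM in the cells of that cluster. At E16.5 the hypodermis-like cells, all from library 1, held 83.1 CPM (53.8 to 123).

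Of the E proteins, Tcf4 was highest in endothelial-like cells in all 4 libraries, with 1236 and 1085 CPM at E16.5 and 644 and 1132 CPM at E18.5. Chondrocyte-like cells followed at E18.5 (399 and 312 CPM), and the suture clusters of that age held 64.6 to 185 CPM. Tcf12 and Tcf3 were spread more evenly: at E18.5 Tcf12 was at 35.9 to 172 CPM and Tcf3 at 25.3 to 178 CPM in the clusters with at least 10 cells in a library, other than the erythroid-like cells (7.89 and 14.5 CPM).

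At E18.5 Id3 was highest in pericyte-like cells, with 1831 and 1321 CPM, followed by chondrocyte-like cells with 1310 and 671 CPM, and it was at 692 and 426 CPM in the first osteoblast-like cluster and at 135 and 138 CPM in macrophage-like cells. Id2, which is known for its role in immune cells, was at 448 and 362 CPM in macrophage-like cells, 595 and 498 CPM in ectocranial mesenchyme-like cells and 120 and 154 CPM in the first osteoblast-like cluster. Id1 was low in that osteoblast-like cluster (42.6 and 43.8 CPM) beside ectocranial mesenchyme-like cells (263 and 186 CPM) and proliferating-like cells (144 and 134 CPM). Id4 was at 84.0 and 77.3 CPM in pericyte-like cells at E18.5 and at no more than 26 CPM in the suture clusters of that age with at least 10 cells in a library.

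**Figure D5:**
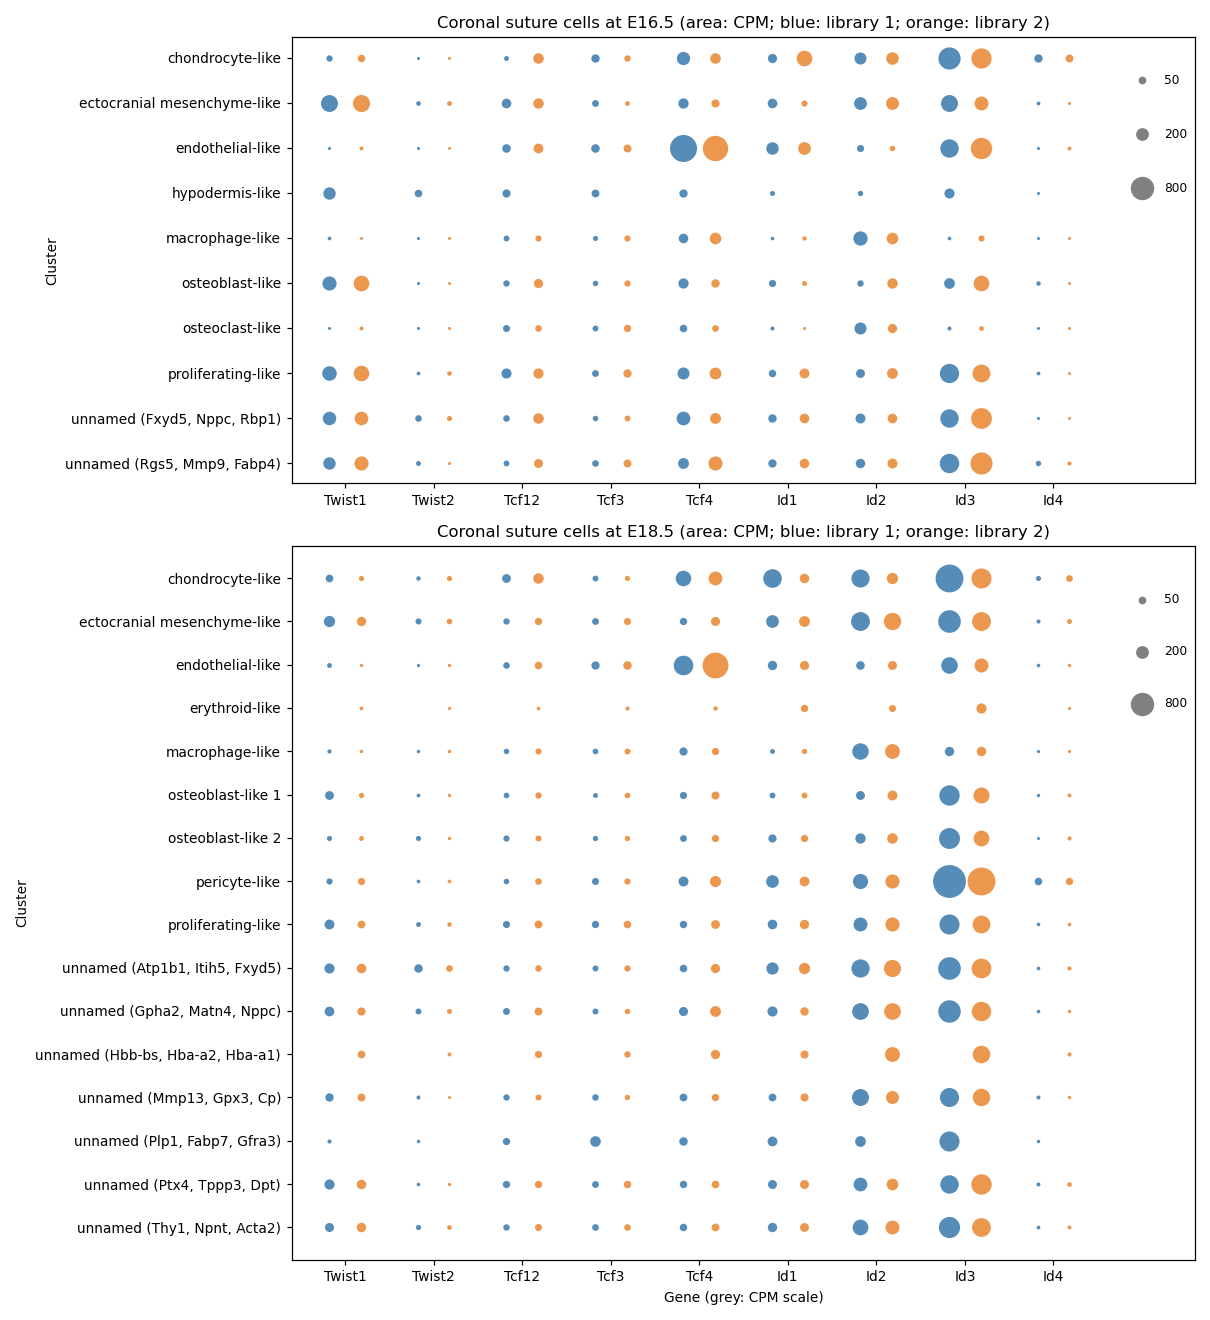
CPM of the 9 members (columns) in the clusters of coronal suture cells (rows) with at least 10 cells in a library, at E16.5 (top) and E18.5 (bottom). The area of a point grows with CPM (grey scale points), blue is library 1 and orange library 2. The large Tcf4 points stand in the endothelial-like row and the large Id3 points in the pericyte-like and chondrocyte-like rows.

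Pathway genes around the members were counted in the averaged SM against OF comparison, where 27.6% of genes were higher and 27.8% lower. Of 34 class II bHLH genes, which code for tissue-restricted partners of E proteins, 7 passed the filter on low counts, 2 rose and 2 fell (median 0.23 on the log2 scale). Scx, the tendon factor scleraxis, rose by 1.90 (SE 0.19), from a median of 1.23 CPM in OF to 6.08 CPM in SM, and Lyl1, a blood and vessel factor, by 0.58 (SE 0.19). Bhlha15, a factor of secretory cells, fell by 4.28 on the log2 scale (SE 0.29; medians 17.2 CPM in OF and 0.436 CPM in SM), and Tcf23 fell as well, though its median was 0 CPM in SM and 0.385 CPM in OF. Of 11 co-regulators of E proteins, 7 rose and the other 4 did not pass (median 0.21), led by Lmo3 (1.53, SE 0.40) and the corepressor Runx1t1 (0.83, SE 0.06).

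Of 22 BMP-SMAD genes, whose signal drives Id transcription, 5 rose and 9 fell (median -0.03). Bambi, a decoy receptor that BMP signals themselves induce, fell by 2.54 on the log2 scale (SE 0.09), from a median of 58.5 CPM in OF to 8.18 CPM in SM, and Smad9 fell by 2.01 (SE 0.09), from 31.3 to 7.33 CPM. The BMP antagonist Grem1 rose by 1.98 (SE 0.26; medians 0.702 and 2.40 CPM), as did Gdf6, with a median of 0 CPM in OF and 0.128 CPM in SM. Of 17 genes linked to Twist1 in sutures, 8 rose and 4 fell (median 0.05): Msx2 (1.29, SE 0.07) and Zeb1 (0.83, SE 0.05) rose most, and Fgfr3 and the bone factor Runx2 fell by 1.73 (SE 0.09) and 0.84 (SE 0.05) on the log2 scale. All adjusted p-values of the genes named in these lists were under the threshold in edgeR's quasi-likelihood test.

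Likeness of pattern was measured as Pearson's r over the 20 group means of log2 CPM after the mean of the groups of the same suture and age was removed, as a description of groups that share embryos and libraries. The genes most like Twist1 were Pcdh9 (r = 0.98), Gm20125 (0.98) and C230086J09Rik (0.98), those most like Id3 were Myrip (0.98), Hpse (0.98) and Qpct (0.98), and those most like Id1 were the cell division genes Stil (0.97) and Kif15 (0.97) and Baz1a (0.96). Tcf4 was most like Zfp346 (0.98), Tubgcp5 (0.97) and Gm43813 (0.97), and Tcf12 most like Gm37655 (0.91), Jph3 (0.89) and Pnrc2 (0.87). For Twist2 these were Bcat2, Ccdc77 and Tram1l1 (0.90 to 0.89), for Tcf3 Tnmd, Tmco3 and Tcfl5 (0.91 to 0.90), for Id2 Teddm2, Tmc1 and Atoh8 (0.89 to 0.83) and for Id4 Klhl8, Gm18878 and Ncoa5 (0.88 to 0.85). Between members r was 0.89 for Id1 and Id3, -0.86 for Twist1 and Id3 and -0.71 for Twist1 and Id1.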

How the data were processed

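The deposited bulk files held read counts per gene: per the labels, the authors trimmed reads with cutadapt, aligned them to mm10 with STAR 2.5.3a and counted them with featureCounts 1.6.4, without regard to strand, after Picopure extraction, Ovation V2 amplification and Nextera XT library preparation. The deposited single-cell matrices held UMI counts per gene and barcode. A table of log2 ratios of SM against OF made by the authors holds their own comparisons and was not used. Of 55487 gene identifiers, 55394 were matched to a symbol.

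Genes with at least 1 CPM in more than 10% of the 100 first libraries were kept (19768), and all 20 groups were fitted together with edgeR 4.0.16 (R 4.3.3), TMM scaling and the quasi-likelihood test, and p-values adjusted by Benjamini-Hochberg over all tested genes of a comparison (threshold 0.05). The SE is the log2 fold change divided by the square root of F, and non-overlap was read from the CPM of single libraries. As alternatives, scaling was changed to total counts or median-ratio size factors, tests to DESeq2 1.42.0 or limma-voom (limma 3.58.1), and the fit to no filter, each suture by itself, second coronal libraries, each replicate left out and a replicate block. The fit with second coronal libraries exchanged 18 first libraries for the second ones of the same samples and kept the other coronal first libraries. SM and OF of 1 number came from 1 embryo by the labels. Deviations from the group means had a median correlation of 0.0505 over 60 such pairs (16 over 0.1) and -0.0121 over 240 pairs of other embryos (13 over 0.1). A correlation over 0.1 was thus more frequent within an embryo, and these values do not show that pairing is absent. The fit without the block was kept as the main one, and blocked values are printed where they changed a call. The averaged test and that of coronal SM against FR at E16.5 were also run on simulated counts, and the outcome is not given here. The replicates are embryos of 1 strain, and depth differed between sutures, from 7305627 to 11294521 counts in lambdoid and 20133332 to 34518477 in coronal libraries.

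Cells with over 800 genes and within 3 median absolute deviations were normalised and clustered with scanpy 1.11.5 (2000 variable genes, 13 to 15 principal components, Leiden resolution 0.8), first as a whole and then within suture cells. Clusters were named where at least 2 markers of a type were among their top 10 genes and at least 3 were detected, and no doublet caller was run. The matrices of the E18.5 libraries carry an E16 code in their names, and the age was taken from the labels. The rule for named genes took all members, up to 2 genes called in each direction per pathway list and the 3 most similar genes per member. The members and lists were chosen with earlier results of these data known.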

Additional observations from a re-analysis of the deposited data

Results flagged for a closer look

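In 14 of 180 groups of 5 libraries, 1 library lay apart from the other 4 by Dixon's criterion, which chance alone meets in about 1 group in 20. The coronal suture at E16.5 held 6 of them: Twist2 at 9.6 CPM in FR and 31.8 CPM in SM, both of replicate 5, Id1 at 16.7 CPM in SM replicate 2, and Id4 at 3.23 CPM in FR replicate 3, 20.1 CPM in PA replicate 2 and 10.5 CPM in SM replicate 3. The frontal suture held 5, with Twist1 at 27.6 CPM and Id2 at 22.6 CPM in FR replicate 2 at E18.5, Tcf12 at 239.7 CPM and Tcf4 at 421 CPM in SM replicate 3 at E18.5, and Tcf3 at 82.7 CPM in SM replicate 1 at E16.5. The remaining 3 were Tcf12 at 158 CPM in lambdoid SM replicate 5 at E16.5, Id2 at 12.3 CPM in lambdoid PA replicate 4 at E18.5, and Tcf3 at 60.7 CPM in sagittal PA replicate 1 at E16.5.

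The SM to OF difference of the coronal suture exceeded that of the other 3 sutures for Id1 by 0.88 and for Tcf4 by 0.27 on the log2 scale in the tests described above. With the second coronal libraries the Id1 value was 0.59 (adjusted p = 0.30), and the Tcf4 value passed in 5 of 12 alternatives.

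For 3 members, all 5 embryos moved 1 way against a front of a suture and all 5 the opposite way against a front of another, at E16.5. The share of all genes with such a pattern was not computed. Twist2 was higher in SM than in coronal FR (1.86) and lambdoid IP (0.70) and lower than in frontal FR (-0.52) and sagittal PA (-1.57). Id2 was higher in SM than in lambdoid PA (0.37) and lower than in frontal FR (-0.24) and sagittal PA (-0.51). Id4 was higher in SM than in frontal FR (0.86) and lambdoid IP (0.89) and lower than in sagittal PA (-0.77). The other front of the same suture did not always go along. SM was the higher in 2 of 5 embryos for Twist2 against coronal PA and in 4 of 5 against lambdoid PA. For Id2 it was the higher in 3 of 5 against lambdoid IP, and for Id4 in 2 of 5 against lambdoid PA. These differences between sutures were not tested.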

How the results depend on the processing

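Of 47 values called over all comparisons, 16 passed under every alternative run for them, and 28 with every replicate left out in turn. In the averaged SM against OF comparison, Twist1 (0.75 to 0.86), Id3 (-0.87 to -0.75), Id1 (-0.92 to -0.75) and Tcf4 (0.20 to 0.31) passed under all 12. Directions were compared for called values only. Of the single values of members, 3445 kept their side of the threshold, 104 lost it, 85 gained it and 2 lost it with the direction turned, and 709 single-cell levels stayed within their intervals while 38 moved beyond them with other cell filters or cluster settings. Counts of members' values called moved as follows. For SM against each OF, the 11 higher in SM became 19 with total counts and 17 with each suture by itself, and the 17 lower became 6 with the second coronal libraries (10 to 14 higher and 13 to 15 lower without a replicate). Over all genes (237216 values), those higher went from 19550 to 23895 and 26173, and those lower from 25515 to 20932. For E18.5 against E16.5, the 3 higher became 6 with limma-voom, 7 with total counts and 1 each with sutures by themselves and second libraries (0 to 4 without a replicate), and the 7 lower became 4 with total counts and 2 with second libraries (5 to 8 without a replicate). All 3 higher calls were lost in the last 2 settings, and the 1 found was Tcf4 in lambdoid SM by single sutures and Id4 in coronal FR with second libraries. Over all genes (197680 values), those higher went from 8760 to 12230, 14795, 6162 and 3668 in the same order, and those lower from 8191 to 5002 and 4090. By single sutures the lower count stayed at 7, but 4 of these calls were lost and 4 others gained. The 2 that turned were Tcf12 and Tcf4 in coronal FR, which went to 0.17 and 0.083 with total counts. Between fronts, the 1 positive call became 2 with DESeq2, 3 with total counts and 0 by single sutures (1 to 2 without a replicate), and the 2 negative became 0 by single sutures and 1 with second libraries (0 to 2 without a replicate). Over all genes (79072 values), the positive calls went from 2282 to 3271, 2669 and 558, and the negative from 1744 to 323 and 627. For the change with age of the SM to OF difference, the 0 negative calls became 1 with DESeq2 and 2 with limma-voom (0 to 1 without a replicate). Over all genes (79072 values), the negative calls went from 797 to 1099 and 1083. For the coronal difference less the others, the 2 positive calls became 1 each with DESeq2, median-ratio factors and no filter, 4 with total counts and 0 with second libraries (1 to 2 without a replicate). Of 19768 genes, the positive calls went from 2532 to 2515 with DESeq2, 2318 with median-ratio factors, 3316 with total counts and 1783 with second libraries. With no filter they were 2433 of 42509. With total counts, the share of called genes that were positive over the whole table rose from 49.8% to 61.7% in the averaged comparison, 43.4% to 57.1% in SM against each OF, 51.7% to 74.7% between ages (63.5% with limma-voom), 60.2% to 76.5% for the coronal difference and 56.7% to 70.8% between fronts. With the replicate block, 13 values were higher and 18 lower in SM against each OF, 2 and 3 in the averaged comparison, 1 and 3 between fronts, and the block changed no call other than those printed above. No block was fitted between ages, since each embryo is of 1 age. Twist2 and Id4 had the lowest median counts per library (74.5 and 25), and how far depth limited their values was not tested.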
